A study of Solanum lycopersicum and Arabidopsis thaliana and Cannabis sativa with 28 samples.

Results

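The H3K4me3 domains of hemp (Cannabis sativa) seedlings are regions of the genome in which reads from H3K4me3 ChIP-seq were piled up over an IgG control. All 16331 domains listed for hemp were taken, of 52544 domains in the 3 deposited domain tables of the study, which also cover tomato. The study developed PHILO ChIP-seq, a plant ChIP-seq protocol for many samples and little tissue, and applied it to Arabidopsis, tomato and hemp. The hemp part consists of 3 H3K4me3 libraries and 3 IgG libraries, all from untreated 2-week-old whole seedlings of the variety Otto II Boax, grown under 16 h of light and 8 h of darkness. IgG is an antibody without a target in chromatin and measures the reads that a region collects without enrichment. The labels do not say whether the replicates came from separate plants, and the domain table holds 1 read count for the 3 merged H3K4me3 libraries and 1 for the 3 merged IgG libraries, so that no spread between replicates can be given and no domain was tested.

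H3K4me3 is the trimethylated form of lysine 4 of histone H3. In plants, as in other eukaryotes, methyltransferases place it on nucleosomes at the 5′ part of transcribed genes, and it is used as a mark of active or poised promoters. Seedlings hold many cell types, and a whole-seedling profile adds up the chromatin of all of them.

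The merged H3K4me3 libraries held 11368858 uniquely aligned reads (3419466 to 4460655 per library) and the merged IgG libraries 2670134 (629654 to 1088069 per library), a ratio of 4.26. Uniquely aligned reads made up 48.1% of the sequenced H3K4me3 reads and 10.5% of the sequenced IgG reads. In the listed domains, 7169433 H3K4me3 reads and 656405 IgG reads were counted, which is 10.9 H3K4me3 reads for each IgG read and 183 H3K4me3 and 16.8 IgG reads per kb. The domains were listed because H3K4me3 exceeded IgG in them, so their enrichment is a description of the list. The lowest ratio of any listed domain was 2.24 H3K4me3 reads per IgG read, and the fewest H3K4me3 reads in a domain were 21.

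H3K4me3 reads per kb spread widely over the domains. The median was 170 reads per kb (quartiles 102 and 253, lowest 19.3, highest 733), and the 90th percentile lay 5.53-fold above the 10th. IgG reads per kb had a median of 16.4 (quartiles 12.5 and 19.5, highest 108), with a 3.11-fold distance between the same percentiles. The H3K4me3 values form a broad plateau with a long upper tail, while the IgG values form a single peak with a shoulder at low values. Across the 16331 domains, both measures had a Spearman's rho of 0.35, which describes the list and carries no test, because the domains share the same pooled libraries and the same domain lengths.

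**Figure D1:**
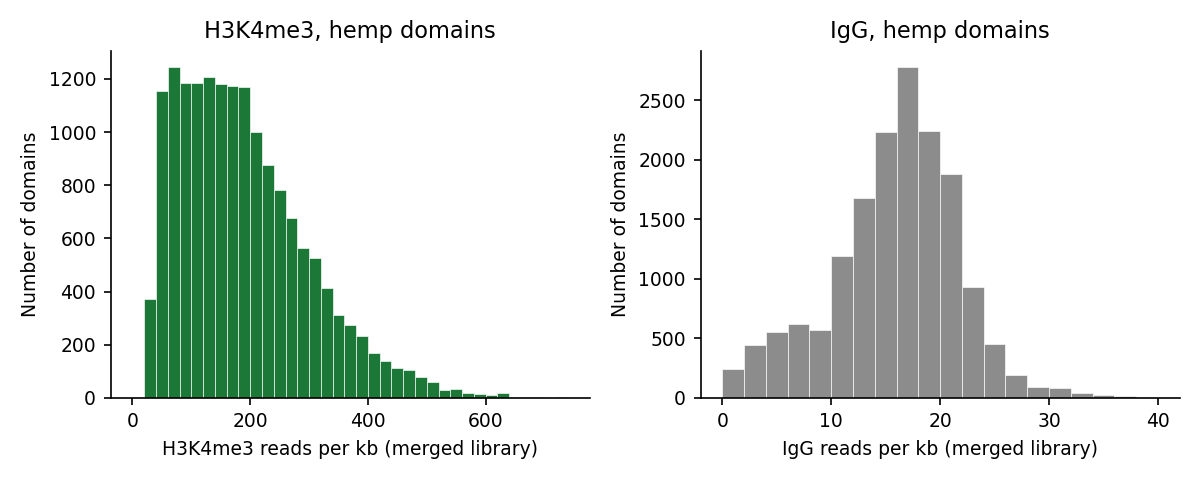
Number of hemp domains (y axis) by H3K4me3 reads per kb (left, x axis) and by IgG reads per kb (right, x axis) in the merged libraries. H3K4me3 spreads from 19.3 to 733 reads per kb around a median of 170, and IgG peaks near its median of 16.4 with a shoulder below 8.22. The IgG axis ends at 40 reads per kb, beyond which 57 domains lie.

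Enrichment is given on the log2 scale as H3K4me3 over IgG reads, with 1 read added to each count and after scaling by the uniquely aligned totals. Its median over the hemp domains was 1.35 (quartiles 0.69 and 1.93, 5th and 95th percentiles -0.40 and 2.73). At least 2-fold enrichment, a log2 value of 1, was reached by 10575 domains, or 64.8% of the list. Fewer domains were at least 4-fold (3630, 22.2%) or 8-fold enriched (417, 2.55%). In 1742 domains (10.7%) H3K4me3 lay below IgG on this scale. Whether the counted reads were limited to uniquely aligned ones is not stated, so these domains are not shown to lack enrichment. By its own fold change, the paper kept more hemp domains than these 10575 at a log2 value of at least 1. The position of the whole distribution depends on the totals used. With the totals of all aligned reads, whose ratio is 1.75, every value is higher by 1.28 on the log2 scale, 93.4% of the domains are at least 2-fold enriched and 0 lie below IgG. Differences in log2 enrichment between hemp domains do not depend on this constant. Every fold level and every share at 2-fold given here for parts of the list uses the uniquely aligned totals and moves with it.

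The 1742 domains below IgG on this scale had a median of 55.1 H3K4me3 reads per kb (quartiles 44.8 and 68.9), against 222 (168 and 297) in the 10575 domains with at least 2-fold enrichment. Their IgG medians were 16.8 and 16.0 reads per kb. IgG differed more at the extremes of the list, with medians of 6.50 reads per kb in the 1000 most enriched domains and 16.9 in the 1000 least enriched. Enrichment shares its counts with both levels, so that these values describe the split. The weak group was shorter, with a median size of 1599 bp against 1999 bp. The 4014 domains with 1 to 2-fold enrichment were longer than both, with a median of 2399 bp. In the outer 20% at either end of a chromosome lay 59.6% of the weak group, against 62.1% of the domains with at least 2-fold enrichment.

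The strongest H3K4me3 signals per kb were found mostly in short domains, each on another chromosome. The highest value, 733 reads per kb, was found in 799 bp on chromosome 6 (38076600 to 38077399) with 586 H3K4me3 and 21 IgG reads. A longer domain of 2599 bp on chromosome 9 (1676800 to 1679399) reached 731 reads per kb, with 1900 H3K4me3 and 54 IgG reads and a log2 enrichment of 3.02 (95% Clopper-Pearson interval of the read counts 2.66 to 3.46). The third to the fifth, on chromosome 10 (57440000 to 57440999), chromosome 1 (27000 to 28199) and chromosome 2 (81272000 to 81272799), held 701, 696 and 688 H3K4me3 reads per kb. Each of these 5 domains was 6.27-fold to 10.9-fold enriched over IgG. All coordinates are those of the cs10 assembly, and the genes at these positions were not analysed here.

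Among domains with at least 20 IgG reads, the highest enrichment was reached on chromosomes 1 and 4. A domain of 2599 bp on chromosome 1 (100477600 to 100480199) held 1169 H3K4me3 and 27 IgG reads, a log2 enrichment of 3.29 (2.80 to 3.95). The domain of 3399 bp on chromosome 4 (84150000 to 84153399) was level with it, at 1374 and 32 reads and a log2 enrichment of 3.29 (2.83 to 3.89). A further domain on chromosome 1 (71751200 to 71753999) and a pair on chromosome 4 (83693400 to 83695599 and 7779600 to 7781799) followed with log2 values of 3.21, 3.19 and 3.15. The intervals of all 5 overlap, so that their order is within counting error. Their IgG levels were low, between 9.41 and 11.8 reads per kb, while their H3K4me3 levels of 404 to 477 reads per kb were below those of the strongest domains.

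At the other end, the 5 least enriched domains had H3K4me3 levels of 35.0 to 149 reads per kb, all below the median of the list. The lowest, a domain of 5399 bp on chromosome 3 (78977800 to 78983199), held 454 H3K4me3 and 203 IgG reads, a log2 value of -0.93 (-1.17 to -0.68). The others lay on chromosome 4 (1068600 to 1074399, 59306800 to 59310799 and 90496800 to 90501399) and chromosome 10 (52858400 to 52865399), with log2 values of -0.93 to -0.92. Their sizes of 3999 to 6999 bp were above the median size, and their IgG levels ran from 15.5 to 66.1 reads per kb.

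High IgG was confined to few domains. Only 28 domains held over 50 IgG reads per kb, and 0 of these were at least 2-fold enriched, against 64.8% of the list. Enrichment divides by the IgG counts that chose these domains, so that this 0 follows largely from the choice. The highest level, 108 IgG reads per kb, was measured in a domain of 2199 bp on chromosome 1 (55657600 to 55659799) with 581 H3K4me3 and 237 IgG reads. A pair of domains on chromosome 4 (54414200 to 54415999 and 53874200 to 53877999) had 106 and 102 IgG reads per kb, and a pair on chromosome 5 (70894000 to 70896599 and 85818000 to 85818399) had 90.8 and 82.7. Their H3K4me3 levels, 260 to 318 reads per kb, were above the upper quartile of all domains, and their log2 enrichment lay between -0.80 and -0.18.

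No IgG read was counted in 99 domains and at most 3 in 778 (4.76%), so that IgG was at the limit of this depth there. Of the 99, 91 were under 1 kb long, and their median H3K4me3 count was 47 reads. The most H3K4me3 reads among them were 181 in 599 bp on chromosome 1 (5302200 to 5302799), which is at least 14.2-fold higher than IgG when 3 IgG reads, over the merged libraries, are taken as the floor. Domains on chromosome 6 (4848800 to 4849999) with 155 H3K4me3 reads and on chromosome 1 (12159400 to 12160399) with 151 were at least 12.1-fold and at least 11.8-fold higher. With these 99 domains set to that bound, the median log2 enrichment of the list was 1.35.

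The domains were mostly short. Size, taken as end minus start, had a median of 1999 bp (quartiles 1199 and 2999 bp, 90th percentile 4399 bp), and starts lie on a grid of 200 bp. Domains under 1 kb made up 19.6% of the list (3206). Those over 5 kb made up 6.32% (1032) and held 17.7% of the covered length, and 47 were over 10 kb. The 5 longest lay in the last 20% of their chromosomes, 4 of them on chromosome 2 and 1 on chromosome 4.

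These longest domains held 103 to 254 H3K4me3 reads per kb, in 3 of them less than the median of the list. The longest, 19599 bp on chromosome 2 (94143200 to 94162799), held 2428 H3K4me3 and 362 IgG reads, which is 124 and 18.5 reads per kb and a log2 enrichment of 0.65 (0.50 to 0.82). The second, 16999 bp on the same chromosome (88413600 to 88430599), held 132 H3K4me3 reads per kb and had a log2 enrichment of 0.50. The highest H3K4me3 level of the 5 was in the 16599 bp on chromosome 4 (90569400 to 90585999), with 4218 H3K4me3 reads, the most of any listed domain, or 254 reads per kb. Its IgG level of 33.9 reads per kb was also the highest of the 5, and its log2 enrichment was 0.81 (0.69 to 0.94). The remaining domains on chromosome 2 (79599600 to 79615999 and 86886000 to 86900599) held 174 and 103 H3K4me3 reads per kb, with log2 values of 1.06 and 0.53. Only the domain at 79599600 passed 2-fold, with an interval of 0.90 to 1.23 that spans the threshold. With the totals of all aligned reads, all 5 pass it.

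H3K4me3 per kb was highest in domains of 1 to 3 kb. The median was 123 reads per kb in domains under 1 kb, 202 at 1 to 2 kb, 192 at 2 to 3 kb, 166 at 3 to 4 kb, 149 at 4 to 6 kb and 151 over 6 kb. Accordingly, size and H3K4me3 per kb had a rho of 0.18 among the 8462 domains of up to 2 kb and of -0.19 among the 7869 longer ones. The overall rho of 0.033 hides this turn and changes sign, to -0.021, when domains with at most 3 IgG reads are left out. IgG followed another course, with medians of 12.0, 16.0, 17.1, 17.5, 17.5 and 17.5 reads per kb in the same size classes. The spread narrowed with size as well. In domains under 1 kb the 95th percentile of H3K4me3 per kb was 437 and the 5th was 47.6, against 256 and 66.8 in domains over 6 kb.

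Enrichment was therefore lower in long domains, with the shortest class set apart by its low counts. Both the size and the listing of a domain come from the domain calling, whose window, gap and read filters are not given. The part of these filters in the course with size was not tested. The median log2 enrichment was 1.59 at 1 to 2 kb, 1.37 at 2 to 3 kb, 1.16 at 3 to 4 kb, 0.99 at 4 to 6 kb and 1.02 over 6 kb. The share with at least 2-fold enrichment was 71.2% at 1 to 2 kb and 49.5% at 4 to 6 kb, against 64.8% of the list. Domains under 1 kb had a median log2 value of 1.45, but their median IgG count was 8 reads, and the value was 1.03 without those with at most 3 IgG reads and 0.76 with 5 reads added to each count. Over all sizes rho of size and log2 enrichment was -0.17, and with 5 reads added it was 0.0063. Among the 13125 domains over 1 kb it was -0.24, and -0.17 with 5 reads added.

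**Figure D2:**
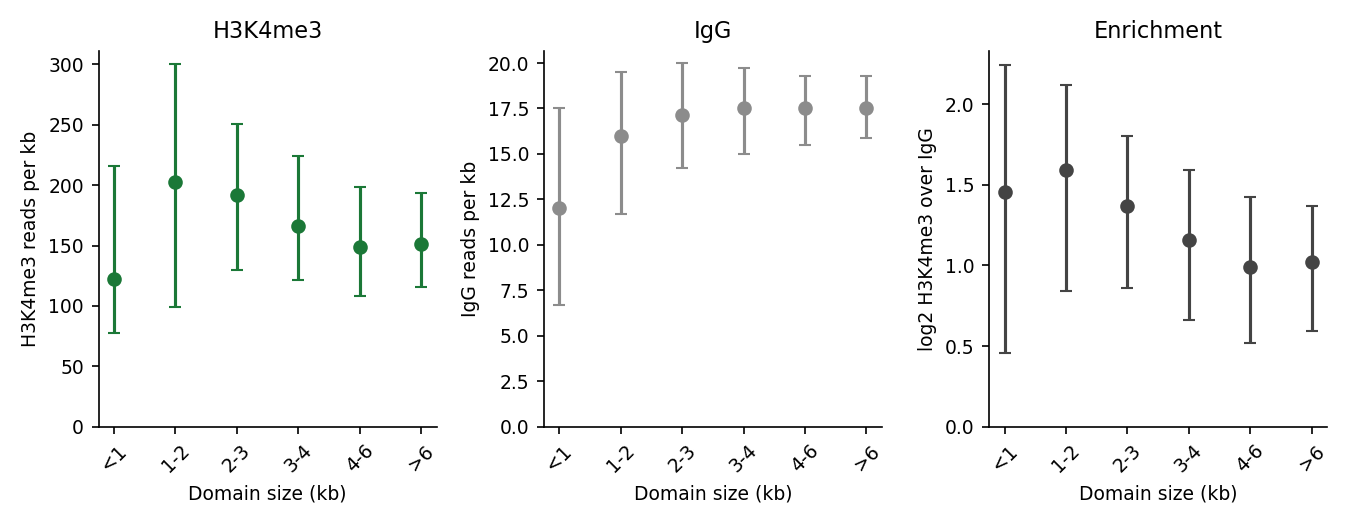
Median (points) and quartiles (bars) of H3K4me3 reads per kb, IgG reads per kb and log2 enrichment (y axes, left to right) by domain size in kb (x axis). H3K4me3 is highest at 1 to 2 kb (202 reads per kb) and lower in longer domains (149 at 4 to 6 kb), IgG levels off at 17.5, and log2 enrichment is 1.59 at 1 to 2 kb and 1.02 over 6 kb.

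When the list was split into 4 equal classes by H3K4me3 per kb, the strongest and the weakest class were both short, and the broad domains lay between them. Median sizes were 1599, 2399, 2399 and 1799 bp from the weakest to the strongest class. Domains over 5 kb made up 5.49%, 10.7%, 7.47% and 1.64% of these classes. The strongest class was of a narrower size range, with 71.1% of its domains between 1 and 3 kb, against 49.3% in the weakest. At least 2-fold enrichment was reached by 19.2%, 48.4%, 92.3% and 99.1% of the classes, which share the H3K4me3 counts with the split.

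On the chromosomes the domains covered 39.1 Mb, or 4.87% of the 802 Mb between the first base and the last listed domain of each of the 10 chromosomes. This listed span stands in for the chromosome lengths, which were not used here. Domains had a mean density of 20.4 per Mb. Density differed 2.27-fold between chromosomes, with chromosome 10 at 30.4 domains per Mb (1966 domains), followed by chromosome 2 at 27.2 (2607) and chromosome 7 at 23.7 (1458). Chromosomes 1 and 4 were level at 22.1 per Mb, with 2235 and 2025 domains. Lower densities were found on chromosome 3 (17.4 per Mb, 1643 domains), chromosome 5 (16.5, 1436), chromosome 8 (15.9, 1027), chromosome 9 (14.2, 874) and chromosome 6 (13.4, 1060). The share of the span that was covered ranged in the same way, from 3.11% on chromosome 6 to 8.01% on chromosome 10.

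The share of broad domains differed between chromosomes. Domains over 5 kb made up 9.51% of the list on chromosome 2, 8.19% on chromosome 10 and 7.36% on chromosome 4, against 4.09% on chromosome 8, 4.15% on chromosome 6 and 4.30% on chromosome 1, which had the second most domains. On chromosome 2, 165 of these 248 broad domains (66.5%) lay in its last 20%, where 39.2% of all domains of the chromosome were found. Median sizes were 1799 to 2199 bp on every chromosome. The median log2 enrichment was 1.56 on chromosome 1, 1.41 on chromosome 2 and 1.38 on chromosome 5, and 1.25 to 1.33 on the others. The median H3K4me3 level was lowest on chromosome 2, at 153 reads per kb, and 164 to 180 on the others, while the median IgG level was lowest on chromosome 1, at 14.0 reads per kb, and 15.7 to 17.2 on the others.

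Domains were concentrated towards chromosome ends. When the listed span of every chromosome was cut into segments of 10%, the first segment held 43.3 domains per Mb and the last 38.4, against 11.4 in the fourth, the lowest, a 3.80-fold range. The outer 20% at both ends, 40% of the span, held 61.6% of the domains. Domains over 5 kb made up 8.45% and 8.31% of the domains in the ninth and the last segment. Their share was 6.32% in the list and lowest in the fifth segment, at 3.35%. Chromosome 2 alone held 165 of the broad domains in the last 20%, among its 1023 domains there. A higher share at the far end is therefore not shown for the other chromosomes. The levels did not follow the number of domains. The median H3K4me3 level was 162 to 178 reads per kb in all segments, the median IgG level 15.4 to 16.9 and the median log2 enrichment 1.25 to 1.39. Accordingly, the number of domains in a window of 1 Mb centred on a domain had a rho of 0.013 with the log2 enrichment of that domain. The rho with its H3K4me3 reads per kb was 0.029.

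The ends of a chromosome were seldom alike. Chromosomes 6, 8 and 9 had a dense start and a sparse end, with 40.2%, 46.6% and 49.8% of their domains in the first 20%, against 15.6%, 15.2% and 12.1% in the last. Chromosome 1 also held more domains in its first 20% than in its last, at 46.7% and 18.3%. Its last segment was not sparse, however, at 26.3 domains per Mb against 22.1 over the chromosome. Chromosome 10 had a sparse start and a dense end, with 8.14% in the first 20% and 44.5% in the last. Only 3 domains lay in its first 4 Mb, and the ninth segment, at 76.6 domains per Mb, was the densest segment of any chromosome. Chromosome 2 was also denser at its end, with 39.2% of its domains in the last 20% and 18.3% in the first. On chromosomes 3, 4, 5 and 7 both ends were dense and the middle was sparse. Without chromosome 10, the outer 20% at both ends held 62.9% of the domains.

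**Figure D3:**
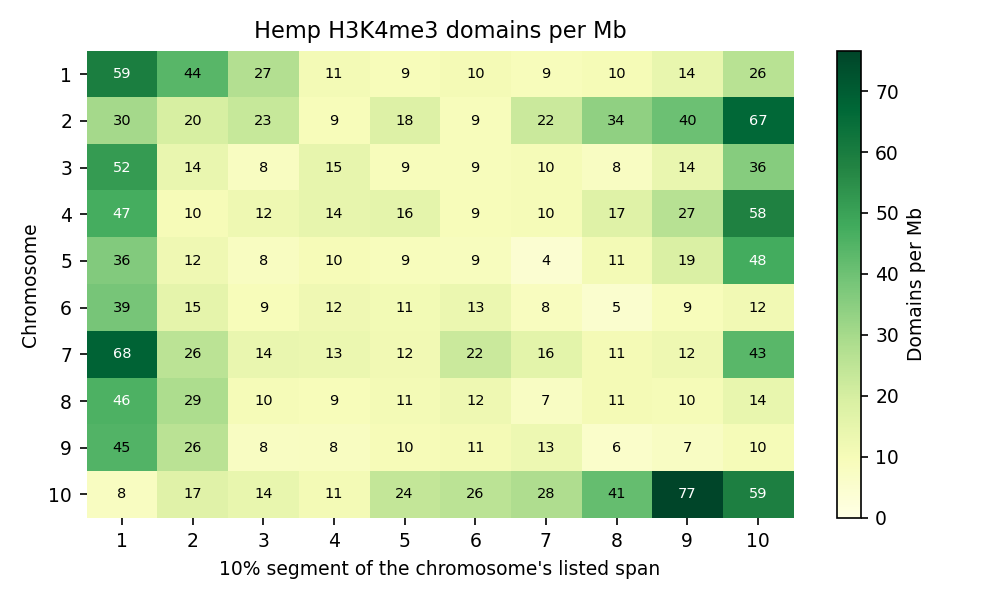
H3K4me3 domains per Mb (colour and printed value) in each 10% segment of the listed span (x axis) of the 10 hemp chromosomes (y axis). Chromosomes 6, 8 and 9 are dense only at their start, chromosome 10 is densest in the ninth segment (76.6 domains per Mb), and on most chromosomes the middle segments are sparse.

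In bins of 1 Mb the count of domains had a median of 13 (quartiles 7 and 26). Of 807 bins, 74 (9.17%) held at least 50 domains, 5064 in all, and 134 held at most 5. The densest 25% of the bins held 59.3% of the domains. The densest bin, 2 to 3 Mb on chromosome 1, held 103 domains that covered 236 kb. The bin from 58 to 59 Mb on chromosome 10 held 100 domains on 309 kb, with a median size of 2599 bp, and that from 88 to 89 Mb on chromosome 4 held 100 on 168 kb, with a median size of 1599 bp. The H3K4me3 levels of these 3 bins, 185, 195 and 174 reads per kb, were close to the median of 181 over the 521 bins with at least 10 domains.

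Gaps between neighbouring domains had a median of 14201 bp (quartiles 5001 and 40401 bp). The shortest was 801 bp and occurred 380 times. It was also the shortest in tomato, and the gap filter of the domain calling, which can set such a limit, is not given. Gaps of at most 2 kb made up 9.42% of the 16321 gaps, those of at most 10 kb 41.4% and those over 100 kb 10.3%, which together held 61.1% of the gap length. There were 36 gaps over 1 Mb. The largest, 2.31 Mb, lay on chromosome 9 between 46897999 and 49205000 and held the only run of more than 1 empty bin, from 47 to 49 Mb. The next lay on chromosome 8 between 23747599 and 25822000 (2.07 Mb). A pair of gaps at the start of chromosome 10, from 33599 to 1881600 (1.85 Mb) and from 1883199 to 3701000 (1.82 Mb), was separated by a single domain. The fifth lay on chromosome 6 between 55923599 and 57693200 (1.77 Mb). The other 11 empty bins stood alone. With only the 10575 domains of at least 2-fold enrichment the median gap was 23601 bp.

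Domains linked by gaps of at most 2 kb formed 1349 runs with 2887 members (17.7% of the list). Pairs made up 1181 of the runs, 151 had 3 members and 17 had 4 or more. The longest run, 6 domains on chromosome 6 (4799200 to 4820799), had H3K4me3 levels of 52.5 to 199 reads per kb among its members. Neighbours were little alike in H3K4me3 at any distance. The stronger of a pair exceeded the weaker by a median of 1.88-fold in H3K4me3 per kb at gaps of at most 1 kb and by 1.73-fold to 1.91-fold in the 7 wider classes, up to gaps over 100 kb. The rho of H3K4me3 per kb between neighbours was 0.015 at gaps of at most 1 kb, 0.046 to 0.10 at gaps of 1 to 50 kb, 0.023 at 50 to 100 kb and -0.012 over 100 kb. Over all neighbours, rho was 0.066 for H3K4me3 per kb, 0.083 for log2 enrichment, 0.15 for size and 0.26 for IgG per kb, so that of these measures IgG was the one most shared between neighbours.

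Domains with a neighbour within 2 kb were longer and less enriched than the others. Where the nearest neighbour was at most 1 kb away (751 domains), the median size was 2399 bp and the median log2 enrichment 1.14. Of these domains 57.4% were at least 2-fold enriched, against 64.8% of the list. Where the nearest neighbour was 1 to 2 kb away (2136 domains), the same values were 2399 bp, 1.18 and 58.6%. From 2 kb outward the median size was 1999 bp in every class and enrichment had no steady course. It was 1.33 at 2 to 5 kb, 1.45 at 5 to 10 kb, where the share at 2-fold was highest (69.3%), and 1.45 over 100 kb (510 domains, 65.9%). Median H3K4me3 levels were 160 reads per kb at most 1 kb away and 176 over 100 kb away, and median IgG levels were 17.2 and 15.8.

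IgG itself was uneven along the genome. A set of 1937 domains (11.9%) held less than 50% of the median IgG level, under 8.22 reads per kb, and is called IgG-poor here, a group that was chosen after its values were seen. Their medians were 101 H3K4me3 and 5.01 IgG reads per kb and 999 bp in size, against 182 H3K4me3 and 17.1 IgG reads per kb and 2199 bp in the other 14394 domains. Their median log2 enrichment was 2.13, against 1.27, but the group was chosen by the IgG counts that enrichment divides by, so that this difference follows from the choice. The median IgG count in them was 5 reads, so that membership of single domains is uncertain at this depth. Among the domains over 1 kb, 901 (6.86%) were IgG-poor, with a median of 9 IgG reads, and the difference in H3K4me3 was as large, with 93.6 against 187 reads per kb. Of the 1000 domains with the highest log2 enrichment 572 were IgG-poor, and 6 of the 1000 with the most H3K4me3 reads per kb were. The ranking by enrichment shares the IgG counts with the group and favours such domains by construction.

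The IgG-poor domains were unevenly spread over the chromosomes. They made up 22.6% of the domains on chromosome 2, 15.0% on chromosome 3, 14.9% on chromosome 1 and 12.5% on chromosome 5, against 6.36% to 8.20% on the other 6. In domains over 1 kb the same 4 chromosomes were highest, at 14.9%, 9.35%, 9.71% and 6.67%, with 2.81% to 4.07% on the others. In 44 of the 521 bins at least 40% of the domains were IgG-poor, and 26 of these bins lay on chromosome 2, 7 on chromosome 5, 5 on chromosome 3, 3 on chromosome 1, 1 on chromosome 4 and 2 on chromosomes 6 to 10. These bins held 32.2% of the IgG-poor domains and 7.58% of all domains. The lowest level, 7.53 IgG reads per kb (95% Poisson interval 6.31 to 8.92), was measured from 44 to 45 Mb on chromosome 2, where 10 of 15 domains were IgG-poor and H3K4me3 was also lowest, at 81.6 reads per kb. The bin from 89 to 90 Mb on chromosome 3, with 47 domains, had 134 H3K4me3 reads per kb and 8.95 IgG reads per kb (8.27 to 9.67). The densest bin of chromosome 4, from 88 to 89 Mb, was the 1 such bin of that chromosome, with 47% IgG-poor domains.

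On chromosome 1 the IgG level was stepped. From 31 Mb to the end at 102 Mb, 904 domains held 12.6 IgG reads per kb (95% Poisson interval 12.5 to 12.8), against 17.7 (17.5 to 17.9) in the 901 domains from 6 to 31 Mb, a ratio of 0.71. H3K4me3 was 184 reads per kb in the long stretch, against 192 in the short one, a ratio of 0.95. Of the bins with at least 10 domains, 36 of 40 in the long stretch had under 15 IgG reads per kb, against 1 of 23 in the short one. The median log2 enrichment was 1.76, against 1.33. The ratio for IgG was 0.72 in domains over 2 kb and 0.74 without the IgG-poor domains. Leaving out the IgG-poor domains, which were chosen by their IgG, raises this ratio by construction. The IgG level was thus lower along the long stretch in domains over 2 kb also. In the first 6 Mb of the chromosome, 34.9% of 430 domains were IgG-poor and the level was 14.5 IgG reads per kb.

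Chromosome 2 differed in another way. From its start to 81 Mb, 1667 domains held 14.6 IgG reads per kb (14.5 to 14.7), against 17.6 (17.4 to 17.7) in the 940 domains from 81 Mb to the end, a ratio of 0.83. Here the ratio was 0.93 in domains over 2 kb. It was 0.97 without the IgG-poor domains, which made up 33.4% of the domains of the long stretch and 3.40% of those at the end. These domains were chosen by their IgG, so that leaving them out moves the IgG ratio towards 1 by construction. H3K4me3 was 165 reads per kb, against 178 at the end, and the ratio of 0.93 was 1.01 without the IgG-poor domains. The bounds of these stretches were chosen after their values were seen. Of the 100 segments of the 10 chromosomes, 10 had under 85% of the median IgG level of all domains, 5 on chromosome 1, 3 on chromosome 2 and the others on chromosomes 3 and 5. Base composition, repeats, the share of each region to which reads align uniquely and the number of copies of each region in these plants were not analysed here, and their part in these levels was not tested.

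**Figure D4:**
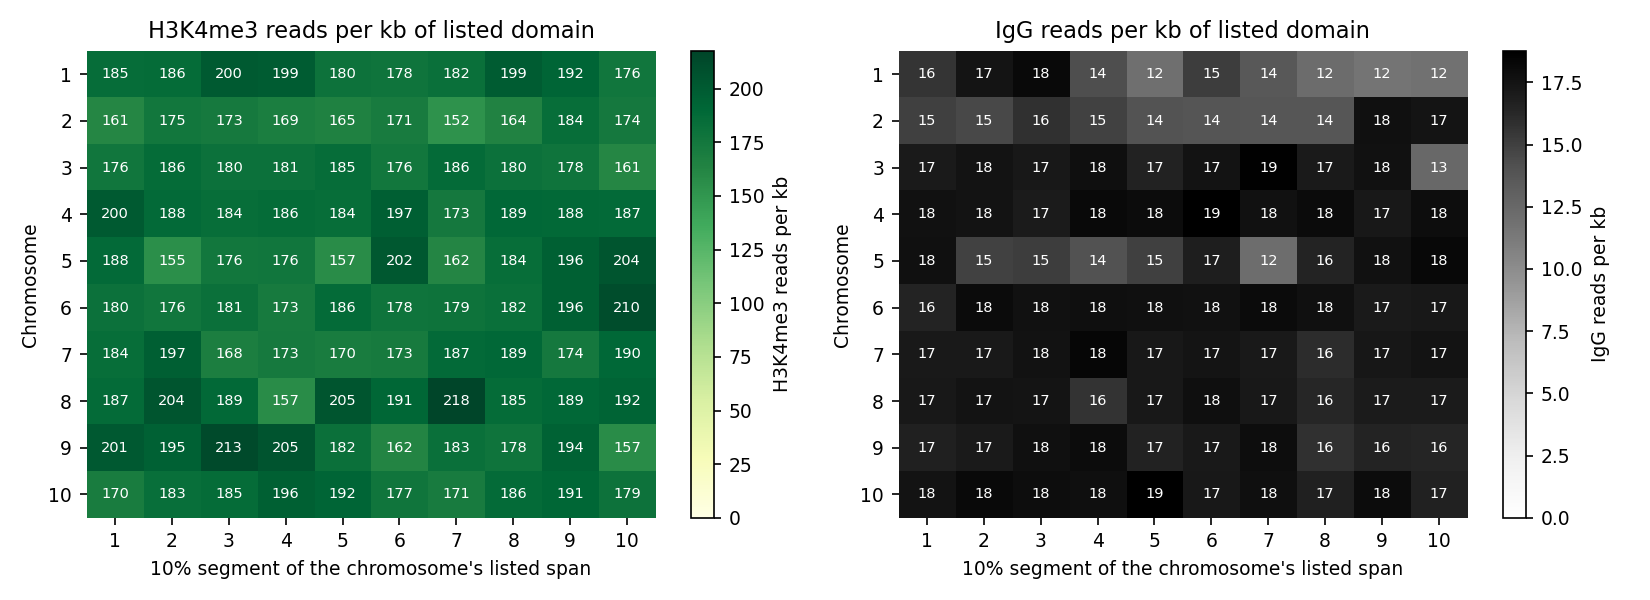
H3K4me3 reads per kb (left) and IgG reads per kb (right), as reads summed over the listed domains divided by their summed length, in each 10% segment of the listed span (x axes) of the 10 hemp chromosomes (y axes). IgG is at 11.6 to 15.1 reads per kb in segments 4 to 10 of chromosome 1 and at 13.8 to 15.8 in segments 1 to 8 of chromosome 2, while H3K4me3 in segments 4 to 10 of chromosome 1 (176 to 199) stays near that of its segments 1 to 3 (185 to 200).

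Set beside the 18758 H3K4me3 domains of tomato, from 2-week-old Micro-Tom seedlings with 3 libraries per antibody, the hemp domains were fewer per Mb (20.4 against 23.6) on a similar listed span (802 against 794 Mb). Species, genome assembly and depth differ together between these tables and cannot be told apart, and with 1 pooled value per antibody and species the differences were not tested. The covered share was alike, at 4.87% in hemp and 4.78% in tomato. Most hemp domains were spread over a wider range of sizes, with a median of 1999 bp (quartiles 1199 and 2999) against 1799 bp (1199 and 2399), and 6.32% against 2.26% were over 5 kb. The longest domain was shorter in hemp, at 19599 bp against 39599 bp. In tomato, 415 listed domains held no more H3K4me3 than IgG reads, against 0 in hemp. Whether the longest tomato domain is among them was not analysed here. The median level was 170 H3K4me3 and 16.4 IgG reads per kb in hemp, and 144 and 19.2 in tomato. These levels are not scaled by depth, so their order between the species cannot be read as a difference in signal. Uniquely aligned totals were 11368858 H3K4me3 and 2670134 IgG reads in hemp, and 14522532 and 9149372 in tomato. At least 2-fold enrichment was reached by 64.8% of the hemp domains, against 81.6% in tomato, but with the totals of all aligned reads these shares were 93.4% and 87.8%, so the order of the species depends on the totals. The scaling ratio on which they rest moved more in hemp (4.26 and 1.75) than in tomato (1.59 and 1.14). By its own fold change, which was not used here, the paper kept more domains of both species at 2-fold than the uniquely aligned totals did.

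Domains were less concentrated in hemp than in tomato. In hemp 61.6% of the domains lay in the outer 20% at both ends and 59.3% in the densest 25% of the 1 Mb bins, against 79.1% and 74.6% in tomato. The sparsest segment held 11.4 domains per Mb in hemp and 4.76 in tomato, and the last segment 38.4 and 77.1. The median gap was 14201 bp in hemp, against 9001 bp in tomato, and gaps of at most 10 kb were 41.4% and 53.0% of all gaps. Gaps over 1 Mb numbered 36 in hemp and 65 in tomato. IgG-poor domains, by the same rule of 50% of the median of the species, were 11.9% in hemp and 1.14% in tomato. The median domain held 34 IgG reads in each species, but the 5th percentile was 4 reads in hemp and 13 in tomato, so that counting error at low IgG was larger in hemp. Scaled by the uniquely aligned totals, 1742 hemp domains (10.7%) lay below IgG, against 1176 tomato domains (6.27%), and with the totals of all aligned reads 0 and 552 did.

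**Figure D5:**
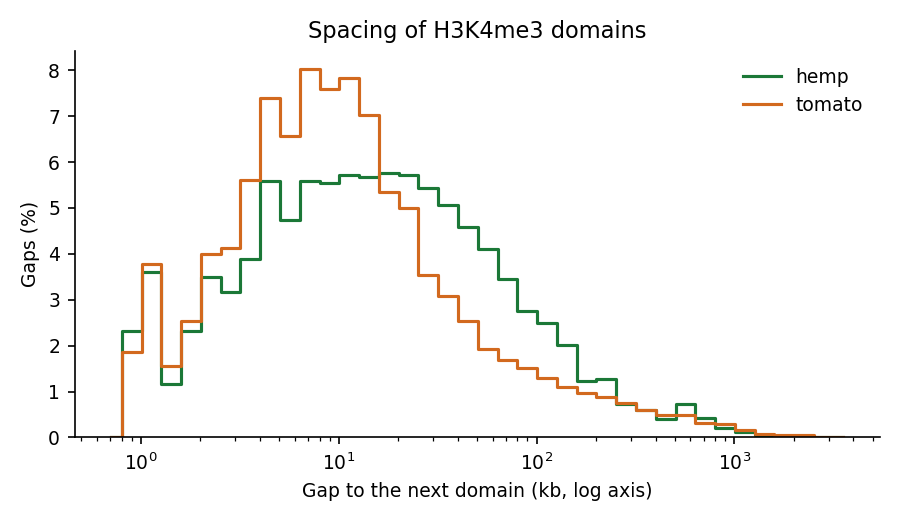
Share of the gaps between neighbouring H3K4me3 domains (y axis, percent) by gap length in kb (x axis, log scale) in hemp and tomato. Both distributions start at the shortest gap of 801 bp, and the hemp curve is broader and lies to the right, with a median of 14201 bp against 9001 bp in tomato.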

How the data were processed

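H3K4me3 and IgG PHILO ChIP-seq reads of hemp were aligned by the authors to cs10 with Bowtie2 (version 2.4.1), the 3 replicates of each antibody were merged, and domains were called with epic2 (version 0.0.52) against IgG, per the methods of the study. The window, gap and read filters are not given in the sources used here. For the fragmentation of hemp chromatin the study's text names MNase, while the labels name sonication. The deposited tables give whole-number read counts per domain, without normalization. They also hold the authors' p-value, FDR, score and log2 fold change, which were not used.

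Enrichment was computed from the counts with a pseudocount of 1 and the merged totals of uniquely aligned reads that the study gives, read with its depth and alignment rate columns exchanged. Whether the counted reads were limited to unique ones is not stated. Intervals are 95% Clopper-Pearson for domains and Poisson for bins and stretches. Reads carry no molecular identifiers, so that intervals and the floor of 3 reads cover counting error only. Correlations are Spearman's rho across domains, given without a test. Gaps run from the end of a domain to the next start.

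Named regions followed a rule: the 5 longest domains, the 5 with the most H3K4me3 or IgG reads per kb, the 5 highest (at least 20 IgG reads) and lowest by enrichment, the 3 with the most H3K4me3 reads and no IgG read, the 5 largest gaps, the 3 densest bins and the longest empty runs, and each chromosome. The other bins, the IgG-poor group and the stretches were chosen after their values were seen. The rule and the lists were chosen with earlier results of these data known. Alternatives concerned scaling, pseudocount, threshold, low counts, joining, bin width and the definition of chromosome ends. The functions were tested on simulated data. The work was done in Python 3.11.15, using NumPy 2.4.6 and pandas 2.3.3 for the tables, SciPy 1.17.1 for intervals and correlations, and matplotlib 3.10.9 for the plots.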

Additional observations from a re-analysis of the deposited data

How the results depend on the processing

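Scaling moved the level of enrichment most. The median log2 enrichment of 1.35 was 2.63 with all aligned totals, 3.44 without scaling and -0.0089 when scaled by the reads in listed domains, which centres the list by construction, and 1.38, 1.15 and 1.31 with a pseudocount of 0.5, a pseudocount of 5 and only domains with over 3 IgG reads. The 10575 domains at 2-fold became 16331 without scaling, 1847 when scaled by the reads in listed domains and 3630 at 4-fold. With only the domains of at least 2-fold, the median gap was 23601 bp, H3K4me3 was 222 and IgG 16.0 reads per kb, and the densest 25% of bins held 60.4%. Those bins held 62.1% with bins of 500 kb and 57.1% with bins of 2 Mb. The median gap was 16600 bp from midpoint to midpoint, and the median size 2199 bp after joining across 2000 bp. The outer share of 61.6% was 40.1% for the outer 10% at each end, 63.3% in base pairs and, added after seeing the data, 62.9% without chromosome 10. The Spearman correlation of size and H3K4me3 per kb (0.033) was -0.021 with over 3 IgG reads and -0.014 at 2-fold. That of size and log2 enrichment (-0.17) was -0.11 with over 3 IgG reads, -0.20 with a pseudocount of 0.5 and 0.0063 with one of 5. The correlation between neighbours in log2 enrichment (0.083) was 0.040 at gaps over 50 kb. The IgG-poor share was 6.86% in domains over 1 kb. Also added later, the IgG ratio of stretches was 0.93 on chromosome 2 in domains over 2 kb. Without IgG-poor domains, a group chosen by IgG, it was 0.74 on chromosome 1 and 0.97 on chromosome 2. The other 15 recomputed values stayed within 1.5 times the count or within the counting interval. Among them is the hemp count at 2-fold with all aligned totals, 15249 against 10575, a large shift that stays within this limit. The causes were not tested beyond what each setting removes.

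Replicates were merged before deposit and were not left out in turn. No paired analysis was possible because each antibody has 1 pooled count per domain. The IgG libraries, with 2670134 uniquely aligned reads, limit the enrichment of single short domains.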
